A study of Homo sapiens with 9 samples.

Results

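Genes for collagens, laminins, fibronectin and a few other secreted matrix proteins, together with the integrins that bind them, were followed in HMEC-1, an immortalised human endothelial line made from small vessels of the skin. Members were taken by symbol: genes named as a collagen, laminin or integrin chain (ITGA with a number or the letters V, E, L, M or X, and ITGB with a number), plus FN1, HSPG2, NID1, NID2, SPARC, THBS1, FBN1, LOX, LOXL2 and TGFBI. This gave 63 of the 18293 genes that both deposited count tables held, 44 of them matrix genes (24 collagens, 10 laminins and 10 others) and 19 of them integrin genes (12 alpha and 7 beta chains). Each group had 3 poly-A RNA libraries. Control cells received the solvent DMSO, and the other groups received AMI-1 or AMI-5 at 100 µM, all for 16 h in MCDB131 medium with 5.5 mM glucose. The study used both compounds as methyltransferase inhibitors. AMI-1 is a urea joining naphthol sulfonic acid units, and AMI-5 is a brominated xanthene dye.

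Endothelial cells rest on a basement membrane, a thin sheet of type IV collagen and laminin networks bridged by nidogens and the proteoglycan perlecan. Each laminin is a trimer of an alpha, a beta and a gamma chain, and each collagen a triple helix of alpha chains, so the make-up of the trimers depends on which chain genes a cell uses. Integrins are pairs of an alpha and a beta chain that hold the cell to these proteins and pass signals across the membrane. Fibronectin is bound mainly by the pair of ITGA5 and ITGB1, laminins by pairs with ITGA3 or ITGA6, and fibrillar collagens by pairs with ITGA1, ITGA2, ITGA10 or ITGA11.

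Levels are given as CPM (read counts scaled to a common library size) after TMM scaling, which corrects library sizes for composition, and changes as log2 fold changes ± SE from edgeR's quasi-likelihood test with the replicate number as a block. A change was called at a Benjamini-Hochberg adjusted p under 0.05 over 18284 genes. Each comparison therefore sets a treated library beside the control library of the same number. The labels do not say what a number stands for or that libraries came from separate cultures. The p-values therefore measure only the spread left within replicate numbers among these libraries, and not the spread between numbers. Libraries held 14451343 to 24691456 counts over the genes in both tables. Among the 63 members, 70.4% of the sum of squares between libraries lay between replicate numbers and 16.5% between treatments. Of 15 endothelial markers 13 were measured, and PECAM1 and CLDN5 were not in both tables. Medians were 404 CPM for ENG, 164 for CDH5, 157 for TIE1, 72.3 for TEK, 66.8 for ROBO4 and 64.0 for FLI1. ERG, EGFL7, KDR and VWF were at 57.1, 53.8, 17.0 and 7.24 CPM, and FLT1, EMCN and ESAM at 6.86, 4.08 and 1.49 CPM. The summed level of these 13 was 981 to 1395 CPM in controls, 1048 to 1327 CPM with AMI-1 and 821 to 1108 CPM with AMI-5. Of 9 fibroblast markers 6 were measured. COL1A2 had a median of 191 CPM, THY1 of 82.0, COL3A1 of 9.61, PDGFRA of 1.53 and LUM of 0.972 CPM. Most of their summed 3014 to 4476 CPM in controls, 3142 to 4186 CPM with AMI-1 and 2464 to 3196 CPM with AMI-5 was COL1A1. Of 8 smooth muscle and pericyte markers 7 were measured, at a summed 551 to 895, 567 to 808 and 498 to 797 CPM. Medians were 412 CPM for TAGLN, 225 for CSPG4 and 51.4 for PDGFRB, and 11.3 for MYH11 and 7.24 for ACTA2. CNN1 and RGS5 were at 1.38 and 2.14 CPM. Of 8 epithelial markers 3 were measured, at a summed 239 to 413, 265 to 393 and 202 to 374 CPM. Their medians were 269.8 CPM for KRT18, 68.7 for KRT8 and 1.45 for CLDN4.

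Divided by transcript length, FN1 stood highest of all members in control cells, at 1078 CPM per kb. It encodes fibronectin, the main adhesive glycoprotein of provisional matrix. The level was 586 CPM per kb for THBS1, whose product thrombospondin-1 restrains vessel growth, 500.0 for COL1A1, the alpha 1 chain of type I collagen, 457 for SPARC, a collagen-binding matricellular protein, and 306 for TGFBI, an adhesion protein induced by TGF-beta. Together 12 of 44 matrix genes reached 100 CPM per kb in controls, against 3 of 19 integrin genes. Those 3 were ITGB1 at 212, ITGA3 at 148 and ITGA5 at 144 CPM per kb, and the last pair lay close together relative to the spread between libraries. At the other end 7 matrix and 4 integrin genes were under 1 CPM per kb, the lowest being LAMA2 at 0.0612 and COL4A4 at 0.0955. All 63 members passed the filter on low counts, down to ITGB2 with 3 to 16 counts per library.

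**Figure D1:**
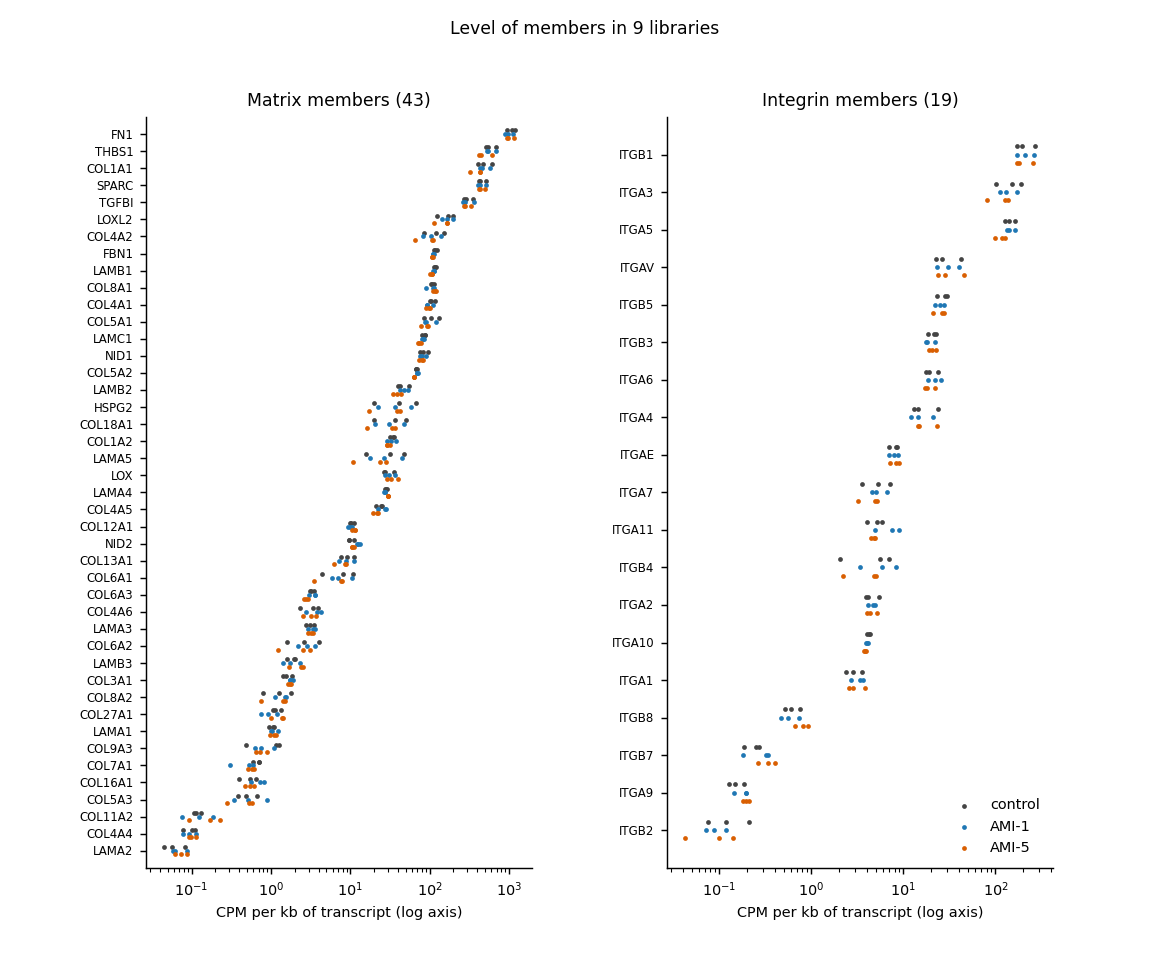
CPM per kb of the longest annotated transcript on a log axis, with 43 matrix genes on the left and 19 integrin genes on the right, and each of the 9 libraries as a point coloured by treatment. FN1 was the highest matrix gene at 1078 CPM per kb in controls and ITGB1 the highest integrin at 212, and for most genes the 3 treatments lay on top of each other.

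Type I collagen is usually built of alpha 1 and alpha 2 chains, whose genes stood at unequal levels. COL1A1 exceeded COL1A2 per kb in all 9 libraries, by 10.3 to 17.5 times. COL4A1 and COL4A2, the chains of the main basement membrane collagen, were near each other, with ratios of COL4A1 to COL4A2 per kb of 0.769, 1.20 and 0.851 in control replicates 1, 2 and 3. Between the laminin alpha chains of vessels, LAMA5 and LAMA4, the ratio per kb ranged over the control libraries from 0.585 in replicate 2 to 1.67 in replicate 1. Summed over the 44 genes, matrix took 3.155%, 3.10% and 2.824% of the counts of control replicates 1, 2 and 3, while the 19 integrins took 0.315%, 0.315% and 0.302%. With AMI-1 these shares were 3.004%, 3.108% and 2.759%, and 0.314%, 0.322% and 0.303%. With AMI-5 they were 2.789%, 2.998% and 2.775%, and 0.283%, 0.294% and 0.280%, so that each AMI-5 library was below its control in both sums.

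With AMI-5, a part of the matrix set fell, among it 4 laminin genes and 1 of 5 type IV collagen genes (COL4A2), and so did both of the integrin alpha chains with the highest level per kb. Of 44 matrix genes 10 fell, or 22.7%, beside 7.51% of all genes tested, and 1 rose, beside 3.44%. Of 19 integrins 2 fell, or 10.5%, and 0 rose. By group, 4 of 10 laminins fell, 4 of 24 collagens and 2 of the 10 other matrix genes. The largest fall was that of LAMA5, by 34.0%, and the next largest, that of ITGA3, was 21.9%. Before any correction for GC content, the median log2 fold change was -0.11 over the matrix genes, -0.06 over the integrins and -0.005 over all genes. In all, 22 of 44 matrix genes and 6 of 19 integrins were lower in 3 of 3 pairs of libraries, where 28.8% of all genes were. In bulk RNA, fewer cells using a gene and less RNA per cell cannot be told apart.

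These calls rest on the comparison within replicate numbers. Without the block edgeR called 0 members and 0% of all genes in each of the 3 comparisons, with 1, 1 and 6 members at an unadjusted p under 0.05 in the comparison of AMI-1 with control, of AMI-5 with control and of AMI-5 with AMI-1. Without AMI-5 replicate 1 or without control replicate 1, calls against control remained for LAMA5 and ITGA5 alone, and without AMI-5 replicate 2 for LAMA5, ITGA5, ITGA3 and THBS1 alone. The highest adjusted p over the 9 fits with 1 library left out is given with each gene. DESeq2 with the same block called 8 matrix genes and 2 integrins, beside 7.38% of all genes, and did not call COL1A1, HSPG2 or LOX. Among endothelial markers 6 of 13 were called lower with AMI-5 and 1 higher (ESAM, at 0.544 to 2.87 CPM over all libraries), and their part in these results was not tested.

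**Figure D2:**
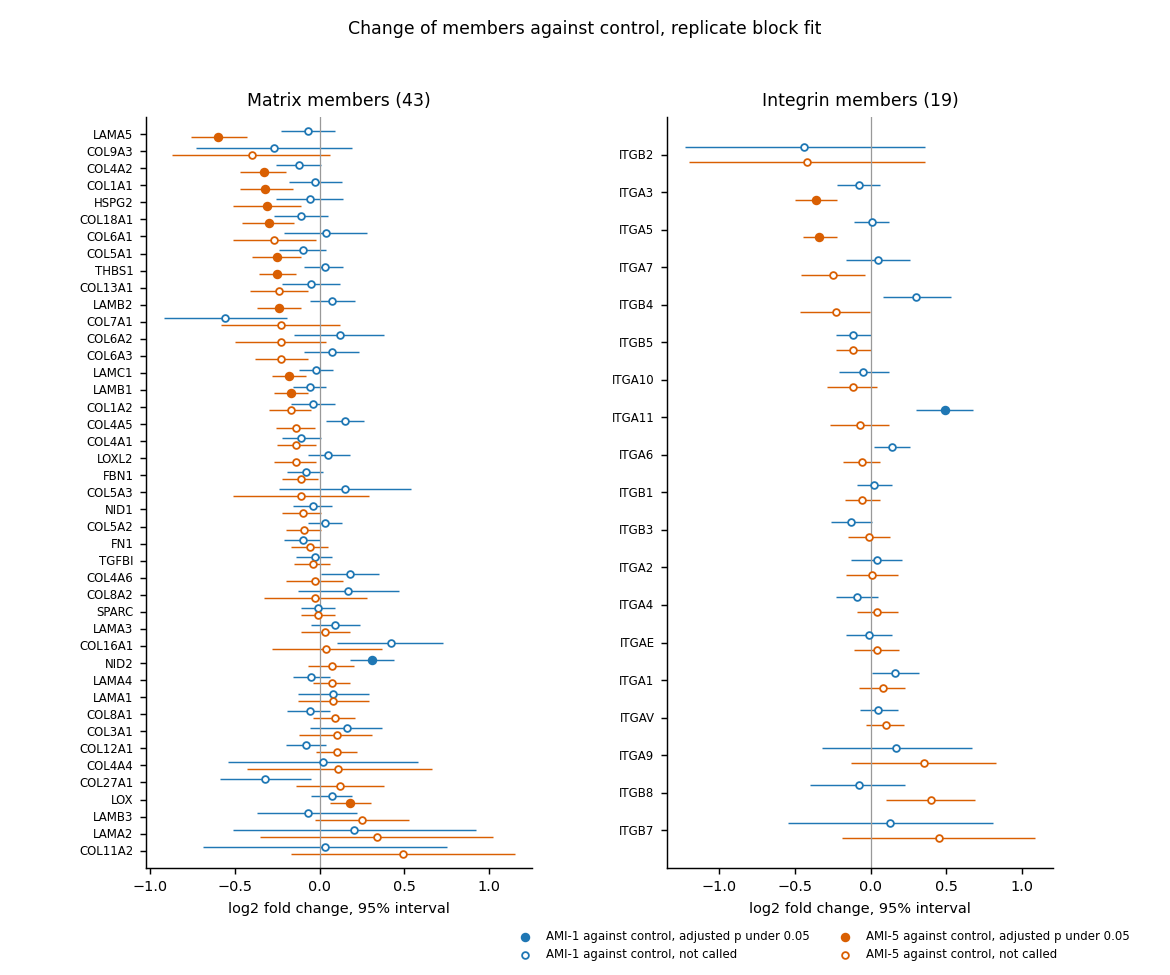
Log2 fold change against control with its 95% interval for 62 members, from the fit with the replicate block, matrix genes on the left and integrins on the right, with AMI-1 and AMI-5 in separate colours and filled points for an adjusted p under 0.05. With AMI-5, 12 filled points lie below 0, LAMA5 farthest at -0.60, and 1 lies above; with AMI-1, 2 filled points lie above 0.

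The laminin genes that fell with AMI-5 were LAMA5, the alpha 5 chain, LAMB1 and LAMB2, the beta 1 and beta 2 chains, and LAMC1, the gamma 1 chain. The alpha 5 and gamma 1 chains assemble with either beta chain, which are alternatives in a trimer. The trimer of alpha 5, beta 1 and gamma 1 is a major laminin of mature vessel walls. For the 3 genes of that trimer the 250 bases before the annotated start are shown here, since each was called lower; they come from RefSeq on GRCh38.p14, whose table held 47 of the 63 members, and capitals mark the GC box GGGCGG on either strand, with overlapping matches run together. LAMA5 lies on the minus strand at chr20:62367313-62367562, LAMB1 on the minus strand at chr7:108003162-108003411 and LAMC1 on the plus strand at chr1:183023170-183023419.
LAMA5: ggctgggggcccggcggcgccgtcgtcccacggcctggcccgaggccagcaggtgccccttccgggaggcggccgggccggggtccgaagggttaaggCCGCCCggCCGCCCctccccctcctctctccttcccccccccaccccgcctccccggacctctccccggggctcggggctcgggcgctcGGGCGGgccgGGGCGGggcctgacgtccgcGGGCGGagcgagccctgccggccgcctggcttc
LAMB1: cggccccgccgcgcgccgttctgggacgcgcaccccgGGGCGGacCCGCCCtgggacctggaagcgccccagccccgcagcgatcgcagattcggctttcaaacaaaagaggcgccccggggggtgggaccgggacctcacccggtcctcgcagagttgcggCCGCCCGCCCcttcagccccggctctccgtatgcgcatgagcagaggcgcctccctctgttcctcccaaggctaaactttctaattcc
LAMC1: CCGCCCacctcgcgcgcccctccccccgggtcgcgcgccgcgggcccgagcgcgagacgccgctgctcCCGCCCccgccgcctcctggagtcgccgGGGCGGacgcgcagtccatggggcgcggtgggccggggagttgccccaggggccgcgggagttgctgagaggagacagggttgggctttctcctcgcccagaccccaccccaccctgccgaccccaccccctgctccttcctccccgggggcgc
The letters GGGCGG were found 5 times before LAMA5, 4 times before LAMB1 and 3 times before LAMC1, counting both strands, and at least once in 42.6% of 35116 promoter windows of the same length. Neither CCAAT, found in 32.0% of windows, nor TATAAA, found in 10.7%, was present in any of the 3. GC content was 82.8%, 70.4% and 79.6% in the same order, beside a median of 58.0% over all windows.

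LAMA5 read 552, 183 and 365 CPM in control replicates 1, 2 and 3, 512, 202 and 309 CPM with AMI-1, and 319, 123 and 269 CPM with AMI-5. Replicate 2 was lowest in every group, so the ranges overlapped, but each AMI-5 library was below its control, by 0.79, 0.57 and 0.44 on the log2 scale. The change was -0.60 ± 0.08 (adjusted p = 0.000290, n = 3 pairs), and in each fit with 1 library left out the adjusted p was at most 0.0273. LAMB1 read 679, 696 and 664 CPM in controls and 612, 616 and 587 CPM with AMI-5. LAMC1 read 685, 689.7 and 639 CPM in controls and 589, 625 and 567 CPM with AMI-5. For both genes all AMI-5 libraries were below all controls, as held for 3.36% of all genes, and the falls were small, -0.17 ± 0.05 for LAMB1 (adjusted p = 0.0312) and -0.18 ± 0.05 for LAMC1 (adjusted p = 0.0253). Both calls ended in 7 of the 9 fits with 1 library left out, among them those without AMI-5 replicate 1, 2 or 3 or control replicate 1, 2 or 3, where the adjusted p reached 0.202 and 0.245.

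LAMB2 read 314, 228 and 242 CPM in controls and 246, 197 and 218 CPM with AMI-5, overlapping ranges with each pair lower (-0.24 ± 0.06, adjusted p = 0.0207). Its call ended without AMI-1 replicate 1, AMI-5 replicate 1 or 2, or control replicate 1 or 3, with an adjusted p of up to 0.253. The vessel chain LAMA4, an alternative partner of the same beta and gamma chains, was not called, at 189, 179 and 187 CPM in controls and 195, 196 and 194 CPM with AMI-5 (0.07, 95% interval -0.04 to 0.18). The ratio of LAMA5 to LAMA4 per kb was accordingly 0.938, 0.360 and 0.795 with AMI-5, beside 1.67, 0.585 and 1.12 in controls, lower in every pair. These ratios hold no GC correction, and the difference between the genes was not tested. With the correction described below, LAMA5 was at -0.36 and LAMA4 at 0.06. LAMA3 and LAMB3, chains found mostly in epithelial laminin, were not called against control in the fit with the block alone, with changes of 0.03 and 0.25.

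Among collagens, COL4A2, COL1A1, COL18A1 and COL5A1 fell with AMI-5, and the other 20 were not called in the fit with the block alone. COL4A2 read 989.7, 547 and 795 CPM in controls and 726, 426 and 689 CPM with AMI-5. Ranges overlapped, with replicate 2 lowest in both groups and each pair lower (-0.33 ± 0.06, adjusted p = 0.00379). COL4A1 read 775, 667 and 689 CPM in controls and 654, 606 and 674 CPM with AMI-5, each pair lower, and was not called (-0.14 ± 0.06, 95% interval -0.25 to -0.02, adjusted p = 0.121). The per-kb ratio of COL4A1 to COL4A2 was 0.885, 1.40 and 0.960 with AMI-5, above its control in 3 of 3 pairs. No test of the difference between the genes was made. With the GC correction described below, COL4A1 was at -0.05 and COL4A2 at -0.16. The COL4A2 call ended without AMI-5 replicate 1 or 2 or control replicate 1, with an adjusted p of up to 0.0900.

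COL4A1 and COL4A2 are transcribed head to head from a shared promoter, and the stretch between their annotated starts is shown because the genes share it while 1 of the 2 was called. It runs from chr13:110307158-110307283 on GRCh38.p14 (RefSeq), printed on the plus strand, the strand of COL4A2, with a CCAAT box and a GC box in capitals.
COL4A1-COL4A2: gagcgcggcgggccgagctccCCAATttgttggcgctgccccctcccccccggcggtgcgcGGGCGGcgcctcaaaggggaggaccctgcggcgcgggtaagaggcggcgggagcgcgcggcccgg
These 126 bases had a GC content of 80.2% and held GGGCGG once, CCAAT once and TATAAA 0 times, counting both strands. In promoter windows of that length the shares were 34.6%, 21.1% and 5.9%, with a median GC content of 60.3%. An antisense gene within COL4A2, COL4A2-AS1, was listed at 14.6 to 35.6 CPM and had an AMI-5 change of -0.31 (adjusted p = 0.0437). Whether counting used strand is not given in the sources used here, so its reads and those of COL4A2 cannot be told apart.

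COL1A1 read 4164, 2732 and 3194 CPM in controls and 2924, 2208 and 2901 CPM with AMI-5 (-0.32 ± 0.07, adjusted p = 0.0125). Its partner COL1A2 read 212, 208 and 189.9 CPM in controls and 173, 191 and 176 CPM with AMI-5, and missed the threshold (-0.17 ± 0.06, adjusted p = 0.0722). The order of the 2 changes differed between fits, and the difference between the genes was not tested. With the GC correction described below, COL1A1 was at -0.15 and COL1A2 at -0.25, the latter not called (adjusted p = 0.217). In both genes every pair was lower, and the largest step was in replicate 1. COL18A1, the source of the anti-angiogenic fragment endostatin, read 334, 132 and 245 CPM in controls and 244, 106 and 219.7 CPM with AMI-5 (-0.30 ± 0.07, adjusted p = 0.0161). COL5A1, which helps to start collagen fibrils, read 1123, 729 and 876 CPM in controls and 809.9, 658 and 789 CPM with AMI-5 (-0.25 ± 0.07, adjusted p = 0.0228). Control and AMI-5 ranges overlapped for both. Each of these 3 calls ended without AMI-5 replicate 1 or 2 or control replicate 1 or 3, with an adjusted p of up to 0.173 for COL1A1, 0.210 for COL18A1 and 0.251 for COL5A1, and the last also without AMI-1 replicate 1. Of the collagens not called, COL4A5 was at -0.14 ± 0.05 and the abundant short-chain collagen COL8A1 at 0.09 ± 0.06.

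Of the other matrix genes, THBS1 and HSPG2 fell with AMI-5 and LOX rose. THBS1 read 4234, 5436 and 3989.6 CPM in controls and 3284, 4836 and 3419 CPM with AMI-5. Replicate 2 was highest in both groups, ranges overlapped, and each pair was lower (-0.25 ± 0.05, adjusted p = 0.00739), a call that ended without AMI-5 replicate 1 or control replicate 1 (adjusted p up to 0.134). HSPG2, the gene of perlecan, read 955, 283 and 583 CPM in controls and 605, 245 and 557 CPM with AMI-5, with pair differences of -0.66, -0.21 and -0.07. Its change of -0.31 ± 0.09 (adjusted p = 0.0477) lost its call in 8 of the 9 fits with 1 library left out, that is in all but the one without AMI-5 replicate 3, reaching 0.363. LOX, which cross-links collagen and elastin, read 141, 181 and 138 CPM in controls and 149, 206 and 168 CPM with AMI-5 (0.18 ± 0.06, adjusted p = 0.0445). Its ranges overlapped, and its call ended in 7 of 9 such fits, all but those without AMI-1 replicate 2 or 3, reaching 0.389.

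Several abundant matrix genes, FN1 foremost, did not pass the test with either compound. FN1 read 10072, 10837 and 8757 CPM in controls, 8949, 10441 and 8234 CPM with AMI-1, and 9018, 10697 and 8759.6 CPM with AMI-5. The groups overlapped, and the AMI-5 change was -0.06 (95% interval -0.17 to 0.05). With AMI-5, SPARC had an interval of -0.11 to 0.09, TGFBI of -0.15 to 0.06, and the microfibril gene FBN1 of -0.22 to -0.01 (adjusted p = 0.146). The nidogen NID1 was at -0.10 ± 0.05 and the cross-linking enzyme LOXL2 at -0.14 ± 0.06, with adjusted p values of 0.219 and 0.136.

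ITGA5 and ITGA3 were the integrins that fell with AMI-5. ITGA5, the alpha chain of the fibronectin receptor, read 812, 641 and 707 CPM in controls, 810.2, 693 and 664 CPM with AMI-1, and 634, 495 and 582 CPM with AMI-5. All 3 AMI-5 libraries were below all 6 others, with steps from control of -0.36, -0.37 and -0.28 (-0.34 ± 0.06, adjusted p = 0.00150), and with each library left out the adjusted p was at most 0.0423. ITGA3, the alpha chain of a laminin receptor that binds laminins with the LAMA5 product, read 1048, 562 and 828 CPM in controls and 754, 446 and 689 CPM with AMI-5. Its ranges overlapped, with replicate 2 lowest and each pair lower (-0.36 ± 0.07, adjusted p = 0.00330), and its call ended without AMI-5 replicate 1 or control replicate 1 (adjusted p up to 0.0850). ITGB1, the beta chain shared by both receptors, read 645, 1029 and 736 CPM in controls and 656, 971 and 681 CPM with AMI-5, a change of -0.06 (95% interval -0.17 to 0.06, adjusted p = 0.529). With the GC correction described below ITGB1 was called lower, at -0.16 (adjusted p = 0.00101), beside -0.19 for ITGA3 and -0.26 for ITGA5. ITGAV, an alpha chain of vitronectin receptors, was at 0.10 ± 0.06, and the laminin-binding chain ITGA6 at -0.06 ± 0.06.

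**Figure D3:**
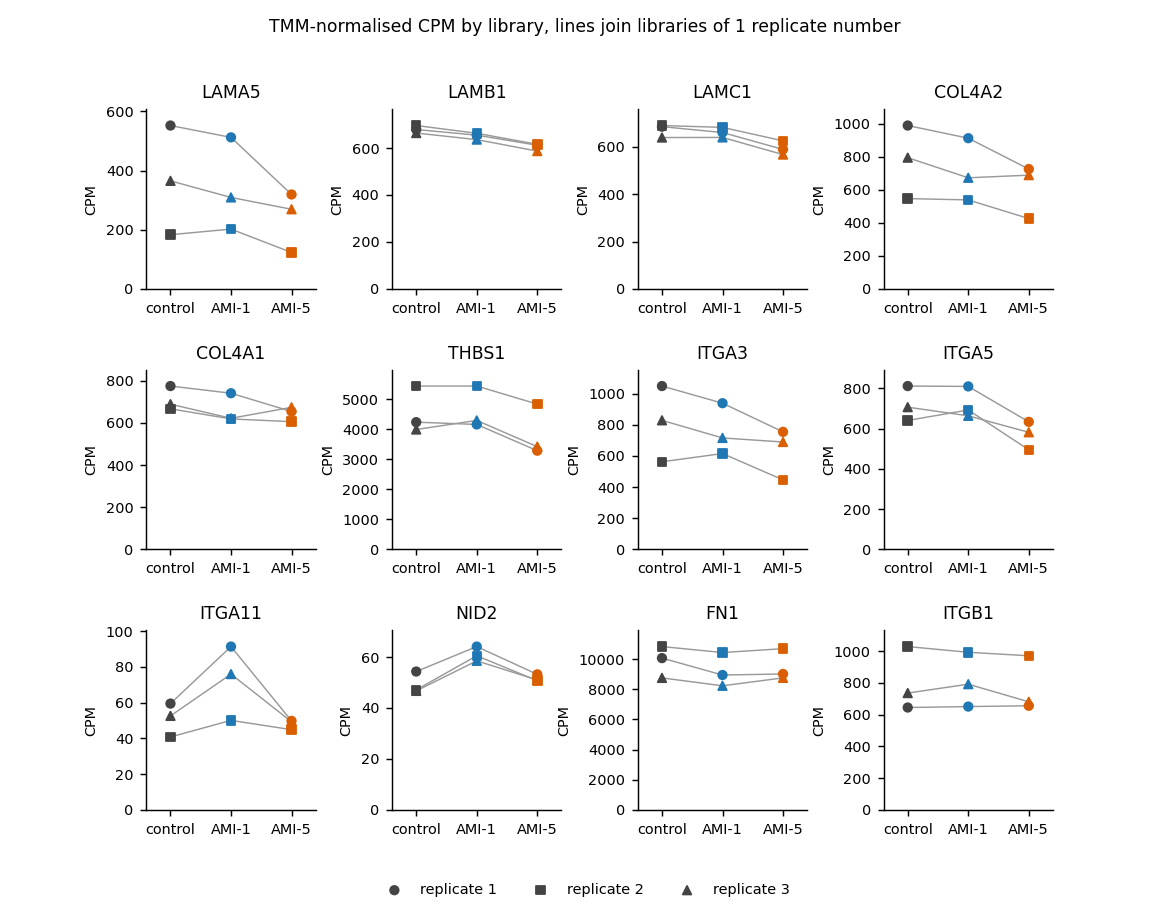
TMM-normalised CPM of 12 members in each of the 9 libraries, a marker shape per replicate number and grey lines joining libraries of 1 number, each axis starting at 0. LAMA5 ranged over 183 to 552 CPM in controls, so that replicate numbers lie farther apart than treatments, while its lines all end lower at AMI-5; ITGA11 peaks at AMI-1.

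Base composition moved with these results. Members that fell with AMI-5 had a median transcript GC content of 60.7% (n = 12), against 51.7% in the other 51, and across all genes those called lower had 58.7% and those called higher 41.5%. Over the 63 members GC content and the AMI-5 change correlated at r = -0.44, genes of the same 6 libraries that are not independent. A stronger relation was present between control libraries, at r = -0.77 for the log2 ratio of control replicate 2 to control replicate 1. A GC correction was then made in each library and kept together with the block. It takes out the trend with GC content by design, so the r of 0.04 after it is no separate result. With it 7 matrix and 4 integrin genes were lower and 2 matrix genes higher, beside 8.21% and 5.33% of all genes. The median log2 fold change was then -0.03 over the matrix genes, -0.05 over the integrins and -0.0043 over all genes.

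LAMA5 (-0.36, adjusted p = 8.11e-09), ITGA5 (-0.26), THBS1 (-0.28), ITGA3 (-0.19), LAMC1 (-0.17), COL4A2 (-0.16), LAMB1 (-0.15) and COL1A1 (-0.15) kept their AMI-5 calls with the GC correction. The changes of LAMA5, ITGA3, COL4A2 and COL1A1 shrank by it, and those of THBS1, LAMC1, LAMB1 and ITGA5 moved by less than 0.10. HSPG2 (-0.10), COL5A1 (-0.10), LAMB2 (-0.09), COL18A1 (-0.06) and LOX (0.08) lost theirs. Newly called lower were ITGB1 (-0.16, adjusted p = 0.00101), FBN1 (-0.12) and ITGA6 (-0.12), and newly higher were LAMB3 (0.38) and COL27A1 (0.29), the last pair named after their values were seen.

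**Figure D4:**
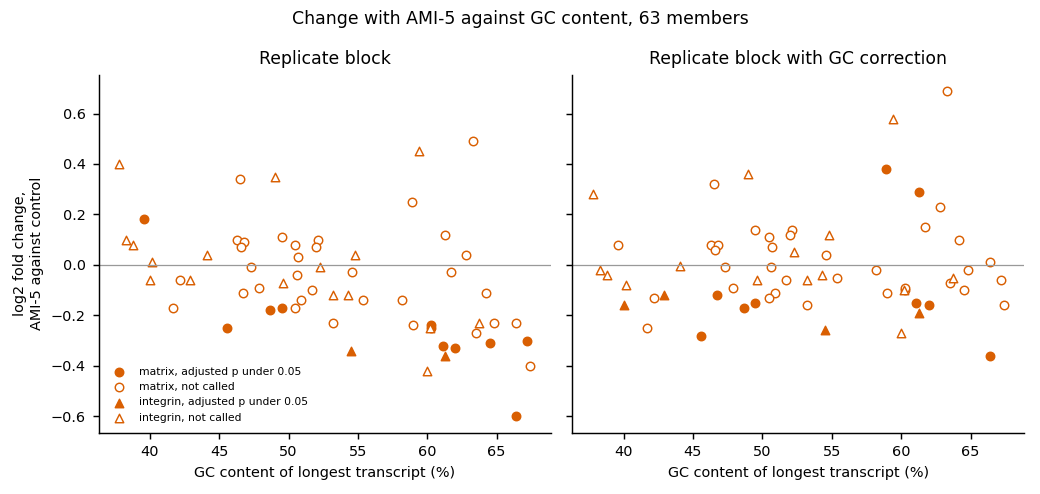
Log2 fold change with AMI-5 against control on the vertical axis and GC content of the longest transcript in percent on the horizontal axis for the 63 members, before (left) and after (right) the GC correction, with filled markers for an adjusted p under 0.05 and separate markers for matrix genes and integrins. The correction takes out the trend with GC content by design, so the downward slope on the left (r = -0.44) is absent on the right (r = 0.04). On the right LAMA5 is still the lowest called member at -0.36.

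With AMI-1, ITGA11 and NID2 rose, and the other 61 members were not called in the fit with the block alone. Of 44 matrix genes 1 rose, or 2.27%, beside 0.230% of all genes, and 0 fell, beside 0.180%. Of 19 integrins 1 rose and 0 fell. Medians were -0.02 over the matrix genes, 0.02 over the integrins and -0.0019 over all genes, and the members not called ranged from -0.56 (COL7A1, under 7 CPM in all libraries) to 0.42. AMI-1 and AMI-5 were set against the same control libraries, so their changes are not independent of each other.

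ITGA11, the alpha chain of a fibrillar collagen receptor, read 59.5, 40.8 and 52.6 CPM in controls, 91.4, 50.1 and 76.0 CPM with AMI-1, and 49.8, 44.9 and 49.3 CPM with AMI-5. Replicate 2 rose least, so that the AMI-1 range overlapped that of controls, while each pair was higher (0.49 ± 0.09, 1.41-fold, adjusted p = 0.0129). NID2, which links laminin to type IV collagen, read 54.3, 47.1 and 46.7 CPM in controls, 64.1, 60.5 and 58.5 CPM with AMI-1, and 53.2, 50.7 and 51.0 CPM with AMI-5. All AMI-1 libraries lay above all others, as all lay above controls for 1.94% of all genes, with a change of 0.31 ± 0.06 (1.24-fold, adjusted p = 0.0330). Leaving out AMI-1 replicate 1 or any 1 control library ended both calls, as did AMI-1 replicate 3 for ITGA11 and AMI-5 replicate 1 or 2 for NID2, with adjusted p values of up to 0.349 and 0.418. With the GC correction ITGA11 kept its size (0.51) but not its call (adjusted p = 0.171), and NID2 kept both (0.33, adjusted p = 4.15e-05). That correction called 3 members higher with AMI-1, beside 1.32% of all genes, and 1 lower, beside 2.15%; COL4A5 (0.17), ITGB4 (0.35) and COL7A1 (-0.51) were the ones added, and COL7A1 was picked for its value.

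AMI-5 against AMI-1, at the same dose and time, tests the difference between the compounds directly, as 1 pair of compounds with p adjusted over all genes. Of 44 matrix genes 8 were lower with AMI-5, or 18.2%, beside 3.48% of all genes, and 0 were higher, beside 1.62%. Of 19 integrins 4 were lower, or 21.1%, and 0 were higher. The difference was largest for ITGA11 (-0.57 ± 0.09, adjusted p = 0.00108), which had risen with AMI-1, for ITGB4 (-0.54 ± 0.11, adjusted p = 0.00688) and for LAMA5 (-0.53 ± 0.08, adjusted p = 0.000536). LAMA5 and ITGA5 (-0.34 ± 0.06, adjusted p = 0.00123) were called in each of the 9 fits with 1 library left out, at adjusted p values of up to 0.0443 and 0.0364. THBS1 (-0.28), LAMB2 (-0.31), ITGA3 (-0.28), COL1A1 (-0.29) and NID2 (-0.24) also differed, with adjusted p values of 0.00466, 0.00626, 0.0202, 0.0300 and 0.0328. For COL1A1 the pair of replicate 3 did not share this direction (0.01), and DESeq2 did not call it.

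ITGB4, COL4A5 and COL6A3 differed between the compounds and were not called against control in the fit with the block alone. With the GC correction ITGB4 and COL4A5 were called higher with AMI-1 than in controls. ITGB4, the beta chain of the hemidesmosome integrin, read 40.8, 12.2 and 32.9 CPM in controls, 49.0, 20.0 and 34.6 CPM with AMI-1, and 28.3, 13.1 and 29.6 CPM with AMI-5. Its AMI-1 libraries were above their controls in 3 of 3 pairs (0.30, adjusted p = 0.318) and above the AMI-5 libraries of the same number in 3 of 3, with overlapping ranges. COL4A5, a minor type IV chain, read 163, 136 and 157 CPM in controls, 181, 146 and 179 CPM with AMI-1, and 144, 126 and 142 CPM with AMI-5 (-0.29 ± 0.05, adjusted p = 0.00310). COL6A3, a chain of beaded filaments, read 37.4, 34.5 and 33.2 CPM in controls. With AMI-1 it read 39.1, 39.2 and 32.3 CPM, and with AMI-5 31.5, 28.5 and 29.6 CPM (-0.29 ± 0.08 between compounds, adjusted p = 0.0296). Its AMI-5 libraries were also below all controls, as held for 3.36% of all genes, and against control it narrowly missed the threshold (-0.23 ± 0.08, adjusted p = 0.0620). For COL4A5 and COL6A3 all AMI-5 libraries were below all AMI-1 libraries, as held for 3.28% of all genes.

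Without AMI-1 replicate 1, or without AMI-5 replicate 1, the difference between compounds stayed called among the 12 genes for LAMA5 and ITGA5 alone; the highest adjusted p was 0.189 for ITGB4, 0.0770 for COL4A5, 0.223 for COL6A3, 0.0722 for THBS1, 0.113 for LAMB2, 0.214 for ITGA3, 0.304 for COL1A1, 0.221 for NID2 and 0.0590 for ITGA11. With the GC correction 11 of the 12 were called, and ITGA11, still at -0.57, was not (adjusted p = 0.0655). In all it called 17 members lower, beside 6.85% of all genes, and 8 higher, beside 5.05%. For FN1 the compounds differed by 0.05, with a 95% interval of -0.06 to 0.15, and for ITGB1 by -0.08, with an interval of -0.19 to 0.03, which does not show that they act alike.

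Around these genes, partners of integrins inside the cell had 12 lower and 0 higher of 33 measured with AMI-5 (median -0.16 beside -0.005 over all genes), where 7.51% of all genes were lower and 3.44% higher, the background for each list that follows. PARVB, an actin-binding parvin, fell by 0.39 (adjusted p = 0.00164), TGFB1I1, the focal adhesion protein Hic-5, by 0.37 (adjusted p = 0.00208) and ZYX, zyxin, by 0.29 (adjusted p = 0.00828). Zyxin lost its call with the GC correction. With that correction the list again had 12 lower of 33, beside 8.21% of all genes, and a median of -0.08. Of 26 enzymes that build and cross-link collagen, 6 fell and 1 rose, led by PXDN (-0.28, adjusted p = 0.00464), which forms sulfilimine cross-links in type IV collagen, LEPRE1 (-0.28, adjusted p = 0.00800), a prolyl hydroxylase, and BMP1 (-0.30, adjusted p = 0.00991), the procollagen C-proteinase. Of 33 other secreted matrix genes 7 fell and 1 rose, led by TNC (-0.26), LTBP4 (-0.39) and AGRN (-0.46). With the GC correction TNC, LTBP4 and AGRN were at -0.19, -0.14 and -0.21, and PXDN, LEPRE1 and BMP1 at -0.19, -0.27 and -0.14. PARVB and TGFB1I1 were then at -0.33 and -0.23, and all of these stayed called. The median of the enzyme list went from -0.14 to -0.02, and that of the other secreted genes from -0.15 to -0.08. In fits without the correction, PARVB and TGFB1I1 of these 9 genes lost their calls without AMI-5 replicate 1, with adjusted p values of 0.0527 and 0.0626. The other 7 lost theirs without either AMI-5 replicate 1 or control replicate 1, with adjusted p values of up to 0.101 (ZYX), 0.103 (PXDN), 0.114 (LEPRE1), 0.137 (BMP1), 0.108 (TNC), 0.140 (LTBP4) and 0.114 (AGRN).

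Surface proteins other than integrins, matrix receptors among them, gave 6 lower and 0 higher of 19 with AMI-5. With the GC correction 3 were lower, beside 8.21% of all genes. SDC1, TSPAN4 and ROBO4 had changes of -0.32, -0.37 and -0.29, and of -0.17, -0.16 and -0.15 with the correction, still called. Of 21 matrix proteases and inhibitors 6 fell and 0 rose. MMP14, a membrane protease that cuts collagen at the cell surface, read 469, 310.0 and 388 CPM in controls and 365, 235 and 325 CPM with AMI-5. Every pair was lower (-0.34 ± 0.05, adjusted p = 0.00112), and the call held with each library left out. MMP2, a gelatinase that MMP14 activates, was at -0.30 (adjusted p = 0.00606) and ADAM15 at -0.29 (adjusted p = 0.0147). With the GC correction MMP14 and MMP2 were each at -0.20 and still called, and ADAM15 was at -0.08 and not called. Of 15 TGF-beta ligands, receptors and SMADs, ENG (-0.36, adjusted p = 0.00362) and TGFBR2 (-0.22, adjusted p = 0.0128) fell and SKIL (0.31, adjusted p = 0.0176) rose, and the list's median was -0.01. With the GC correction ENG was at -0.16 and TGFBR2 at -0.22, both called, and SKIL was at 0.12 and not called. Without AMI-5 replicate 1 or control replicate 1 the calls of SDC1, TSPAN4, ROBO4, MMP2, ADAM15, ENG, TGFBR2 and SKIL ended, with adjusted p values of up to 0.114, 0.130, 0.166, 0.102, 0.144, 0.0905, 0.120 and 0.226.

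With AMI-1 the same lists held 5 calls, 3 higher and 2 lower, where 0.230% of all genes were higher and 0.180% lower. MMP1, an interstitial collagenase that cuts fibrillar collagen, rose from 50.1, 48.1 and 63.4 CPM to 116, 68.6 and 138 CPM (0.96 ± 0.11, 1.95-fold, adjusted p = 0.000635). NTN4, a basement membrane protein that binds laminin gamma chains, rose from 427, 463 and 429 CPM to 571, 557 and 616 CPM (0.40 ± 0.06, adjusted p = 0.00206). For both genes all AMI-1 libraries were above all controls, and with AMI-5 they read 51.5, 42.9 and 50.6 CPM (MMP1) and 387, 452 and 408 CPM (NTN4). The tetraspanin CD9 rose by 0.28 (adjusted p = 0.0150), while LTBP2 fell by 0.38 (adjusted p = 0.00660) and the matrix cross-linking transglutaminase TGM2 fell by 0.31 (adjusted p = 0.0160). The MMP1 call ended without AMI-1 replicate 3 (adjusted p = 0.214) and with the GC correction, which left its size at 0.94 (adjusted p = 0.0599), and those of NTN4, CD9, LTBP2 and TGM2 ended without AMI-1 replicate 1, the last 3 also without control replicate 1, with adjusted p values of up to 0.0917, 0.233, 0.161 and 0.224. Integrin partners inside the cell and the TGF-beta list had 0 calls with AMI-1 in edgeR with the block. Once the GC correction was added, 6 of 33 and 1 of 15 measured genes were lower, beside 2.15% of all genes.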

How the data were processed

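Poly-A RNA libraries of HMEC-1 cells were counted per gene by the authors, who deposited raw read counts in 2 tables, 1 per compound, with the same control libraries in each (0 values differed). BWA, bedtools and build hg19 are named per the submitters' processing notes; versions, annotation and counting strand were not given in the sources used here. The tables had 18385 and 18598 genes, each with a mean count of at least 10, and the 18293 in both were used. Members, gene lists and the choice of the block were made with earlier results of these data known.

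Counts of all 9 libraries were tested in edgeR 4.0.16 (R 4.3.3) by quasi-likelihood F tests, with robust moderation, TMM scaling, filterByExpr by group (9 genes removed, 18284 tested) and terms for group and replicate number. Adjusted p-values are Benjamini-Hochberg over all genes tested, with a threshold of 0.05, and SEs are those implied by the F test. Pairing came from a column name prefix shared within a number: the 9 same-number pairs of libraries correlated at 0.431 to 0.871 in their deviations from group means and the others at -0.804 to 0.204. The GC correction was a lowess curve (span 0.3) per library on GC content, drawn through 14868 genes (mean log2 CPM over 1) and used as an offset. GC content and length came from the longest GENCODE transcript, known for 97.5% of genes. The tests were also run on counts simulated from the blocked fit, which takes the block as given and so cannot check that choice. Other settings were no block, DESeq2 1.42.0, its size factors, no filter, fits of 2 groups, 1 library left out, and a fit without robust moderation, the last chosen after seeing the data. Named were all called members, the members named singly in the rule, the 10 matrix and 6 integrin members with the highest CPM, and up to 3 called genes per list and comparison with the lowest adjusted p. Collagens, laminins and integrins outside both tables were not analysed here, and 1 member is counted but not reported here by name.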

Additional observations from a re-analysis of the deposited data

How the results depend on the processing

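Without the replicate block all calls were lost: 0 matrix, 0 integrin and 0 genes of any kind in each of the 3 comparisons, with a biological coefficient of variation of 23.7% against 5.64% with it. With 1 library left out, calls in AMI-5 against control ranged from 1 to 17 (matrix, 11 with all libraries), 1 to 5 (integrins, 2) and 155 to 4283 (all genes, 2002). In AMI-5 against AMI-1 they ranged from 1 to 19 (8), 1 to 5 (4) and 192 to 3465 (932), and in AMI-1 against control from 0 to 2 (1), 0 to 1 (1) and 14 to 354 (75). Of 27 calls of members, 4 were made in all 9 of these fits, those of LAMA5 and ITGA5 with AMI-5 against control and AMI-1. The GC correction with the block called 3 matrix genes and 635 genes with AMI-1, 4 integrins with AMI-5 against control, and 18 matrix genes, 7 integrins and 2176 genes in AMI-5 against AMI-1, and kept 20 of the 27 calls. Fits of only 2 groups called 0 matrix genes with AMI-1, and 17 matrix genes, 5 integrins and 4372 genes with AMI-5 against control. DESeq2 kept 23 of the 27 and called 8 matrix genes with AMI-5 against control; over all genes its count there was 1349, against 2002. Size factors of DESeq2, no filter on low counts and the fit without robust moderation moved no count past 1.5 times. No called change reversed its sign in these settings, and the cause of the other shifts was not tested. Depth limits the least abundant members: ITGB2, at 3 to 16 counts per library, had a 95% interval of -1.20 to 0.36 with AMI-5.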
